A study of Mus musculus with 9 samples.

Results

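The 8 genes described here, transcription regulators of the kidney tubule, were followed through ureteral obstruction and its release in whole mouse kidneys. They are the tubule-identity factor Hnf4a, the nuclear receptors Ppara, Esrra and Esrrg, the coactivator Ppargc1a, and the nephron-forming factors Pax2, Pax8 and Lhx1. They were chosen by name, and every probe whose RefSeq accession belongs to one of them was read: 12 of the 41174 probes on the array, with 7 of the 8 genes among the 17742 genes tested. The 9 kidneys came from male mice of the ISAM line, aged 10 weeks, with the genotype Epo-/-::3.3K-Epo3'-Tg458 on a mixed strain background, a model of anaemia caused by erythropoietin deficiency. Every group, controls included, carries this genotype, so a kidney with normal erythropoietin production is not among those compared. In 3 mice the left ureter was closed with a vascular clip for 2 days (Clip). In 3 mice the clip was taken off after 2 days and the kidney was collected 12 days later (ClipR-14). The control arm joins 2 sham-treated kidneys and 1 untreated kidney, whose day of collection the labels do not give. RNA of the whole left kidney, 500 ng per sample, was amplified, labelled with the dye Cy3 and read on an Agilent mouse array in 1 colour. Nothing in the labels says more of the replicates than that they are separate samples, so the tests measure the spread between these samples.

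HNF4A is a nuclear receptor that maintains the differentiated state of the proximal tubule and switches on its transporters and metabolic enzymes. PPAR-alpha, encoded by Ppara, is activated by fatty acids and drives the genes of fatty acid oxidation, while the estrogen-related receptors ERR-alpha and ERR-gamma, encoded by Esrra and Esrrg, drive mitochondrial energy genes. PGC-1-alpha, encoded by Ppargc1a, binds these receptors and raises their activity. PAX2, PAX8 and LHX1 are needed to form the nephron in the embryo.

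The 250 bases before the annotated transcription starts are shown for Esrra, Ppara and Lhx1, the genes with the largest falls on the log2 scale, for Ppargc1a, the coactivator gene, and for both annotated starts of Hnf4a because its 3 probes did not give the same values after release. The 4 annotated starts of Esrrg are not shown. The letters are those of the RefSeq promoter table, build GRCm38.p6, written 5′ to 3′ on the strand of the gene. Capitals mark exact matches, on either strand, to the GC box GGGCGG, the CCAAT box CCAAT and the cyclic AMP response half-site TGACG.
Esrra (chr19:6921809-6922058, minus strand): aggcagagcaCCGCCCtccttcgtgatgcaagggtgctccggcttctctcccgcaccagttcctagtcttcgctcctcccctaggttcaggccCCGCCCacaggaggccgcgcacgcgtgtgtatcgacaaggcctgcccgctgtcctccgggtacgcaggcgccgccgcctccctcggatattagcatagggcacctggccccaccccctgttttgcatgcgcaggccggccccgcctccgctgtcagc
Ppara (chr15:85735526-85735775, plus strand): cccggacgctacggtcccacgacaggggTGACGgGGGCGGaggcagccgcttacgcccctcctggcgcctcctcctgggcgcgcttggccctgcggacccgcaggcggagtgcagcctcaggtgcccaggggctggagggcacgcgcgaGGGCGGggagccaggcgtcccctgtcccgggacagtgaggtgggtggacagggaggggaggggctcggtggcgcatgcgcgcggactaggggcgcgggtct
Ppargc1a (chr5:51567726-51567975, minus strand): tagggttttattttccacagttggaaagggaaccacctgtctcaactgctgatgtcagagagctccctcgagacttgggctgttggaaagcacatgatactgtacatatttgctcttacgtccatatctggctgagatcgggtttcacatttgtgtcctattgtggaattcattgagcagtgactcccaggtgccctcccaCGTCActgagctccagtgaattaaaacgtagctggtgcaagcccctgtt
Lhx1 (chr11:84525535-84525784, minus strand): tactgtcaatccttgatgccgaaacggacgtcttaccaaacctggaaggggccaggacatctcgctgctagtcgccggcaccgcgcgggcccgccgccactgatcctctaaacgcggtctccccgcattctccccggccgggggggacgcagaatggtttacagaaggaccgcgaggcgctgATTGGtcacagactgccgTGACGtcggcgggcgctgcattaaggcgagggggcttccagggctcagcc
Hnf4a first start (chr2:163506607-163506856, plus strand): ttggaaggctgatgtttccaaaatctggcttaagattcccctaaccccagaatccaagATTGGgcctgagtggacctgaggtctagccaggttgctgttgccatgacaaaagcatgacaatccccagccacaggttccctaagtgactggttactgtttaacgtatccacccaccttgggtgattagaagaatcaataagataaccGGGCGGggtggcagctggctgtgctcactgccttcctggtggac
Hnf4a second start (chr2:163546905-163547154, plus strand): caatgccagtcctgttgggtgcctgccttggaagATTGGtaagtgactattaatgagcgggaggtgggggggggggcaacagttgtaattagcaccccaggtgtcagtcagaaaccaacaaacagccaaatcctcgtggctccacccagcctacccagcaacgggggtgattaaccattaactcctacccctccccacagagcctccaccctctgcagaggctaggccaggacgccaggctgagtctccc
The Ppara window is 76.4% G and C and holds the GC box and a half-site, while the Ppargc1a window is 48% G and C and holds the half-site without a GC box. The median over all 32851 annotated starts was 52.4%. The GC box was found in 8 of the 14 annotated starts of the 8 genes, against 32.7% of all starts. The CCAAT box was found in 5 of the 14, against 33.8% of all starts, and the half-site in 3 of the 14, against 17.8%. Exact matches to an estrogen-related receptor element (TCAAGGTCA, 0.387% of all starts), an HNF4 element (CAAAGTCCA, 0.384%), an HNF1 element (0.00913%), the full cyclic AMP element (TGACGTCA, 1.55%), an E-box (CACGTG, 6.02%) and the nuclear receptor half-site (AGGTCA, 14%) were found in 0 of the 14. TATAAA was found in 1 of the 14, against 12.4% of all starts. TGACG is contained in TGACGTCA, and AGGTCA in TCAAGGTCA. A match, or its lack, describes only the letters of the window.

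Levels are given as log2 of a probe's signal over the 75th percentile of its array, so a value of 0 is that percentile, and a level is compared only with the same probe on other arrays. The 75th percentile lay between 320.4 and 439.2 intensity units, between 52.0% and 57.5% of probes were well above background, and 0 spots were saturated. The arrays sat on 3 slides, each with 1 array of every arm, and slide 3 carried a scan date of its own. The control array of slide 3 was the untreated kidney, so a control of sham arrays alone has no array on that slide. Calls are at an adjusted p under 0.05 by limma with Benjamini-Hochberg adjustment over the 17742 genes. After 2 days of obstruction 48.9% of all genes were called, 21.4% higher and 27.5% lower than control. After release 1.83% were called against control, 259 higher and 66 lower, a split that became 86 higher and 93 lower when arrays were scaled on their median. Between release and obstruction 41.0% were called.

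Most of these regulators were lower in obstructed kidneys and higher again after release. Against control, 5 of the 7 measured genes were lower in the clipped kidneys (Ppara, Esrra, Lhx1, Esrrg and Hnf4a), 0 were higher, and Ppargc1a and Pax8 were not called. The median of the 7 log2 changes was -1.05, against -0.09 over all genes. With 27.5% of all genes called lower and 21.4% higher, falls of this kind were common in these kidneys. Control and clipped arms did not overlap for these 5 genes, and they did not for 58.6% of all genes. After release 0 of the 7 were called against control, where 1.46% of all genes were called higher and 0.372% lower, and 3811 genes had an unadjusted p under 0.05. Ppara had the smallest adjusted p there, 0.0508 by limma. Against the clipped kidneys 4 of the 7 were higher after release (Esrra, Lhx1, Ppara and Hnf4a), 0 were lower, and 3 were not called, where 23.5% of all genes were called higher and 17.4% lower.

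**Figure D1:**
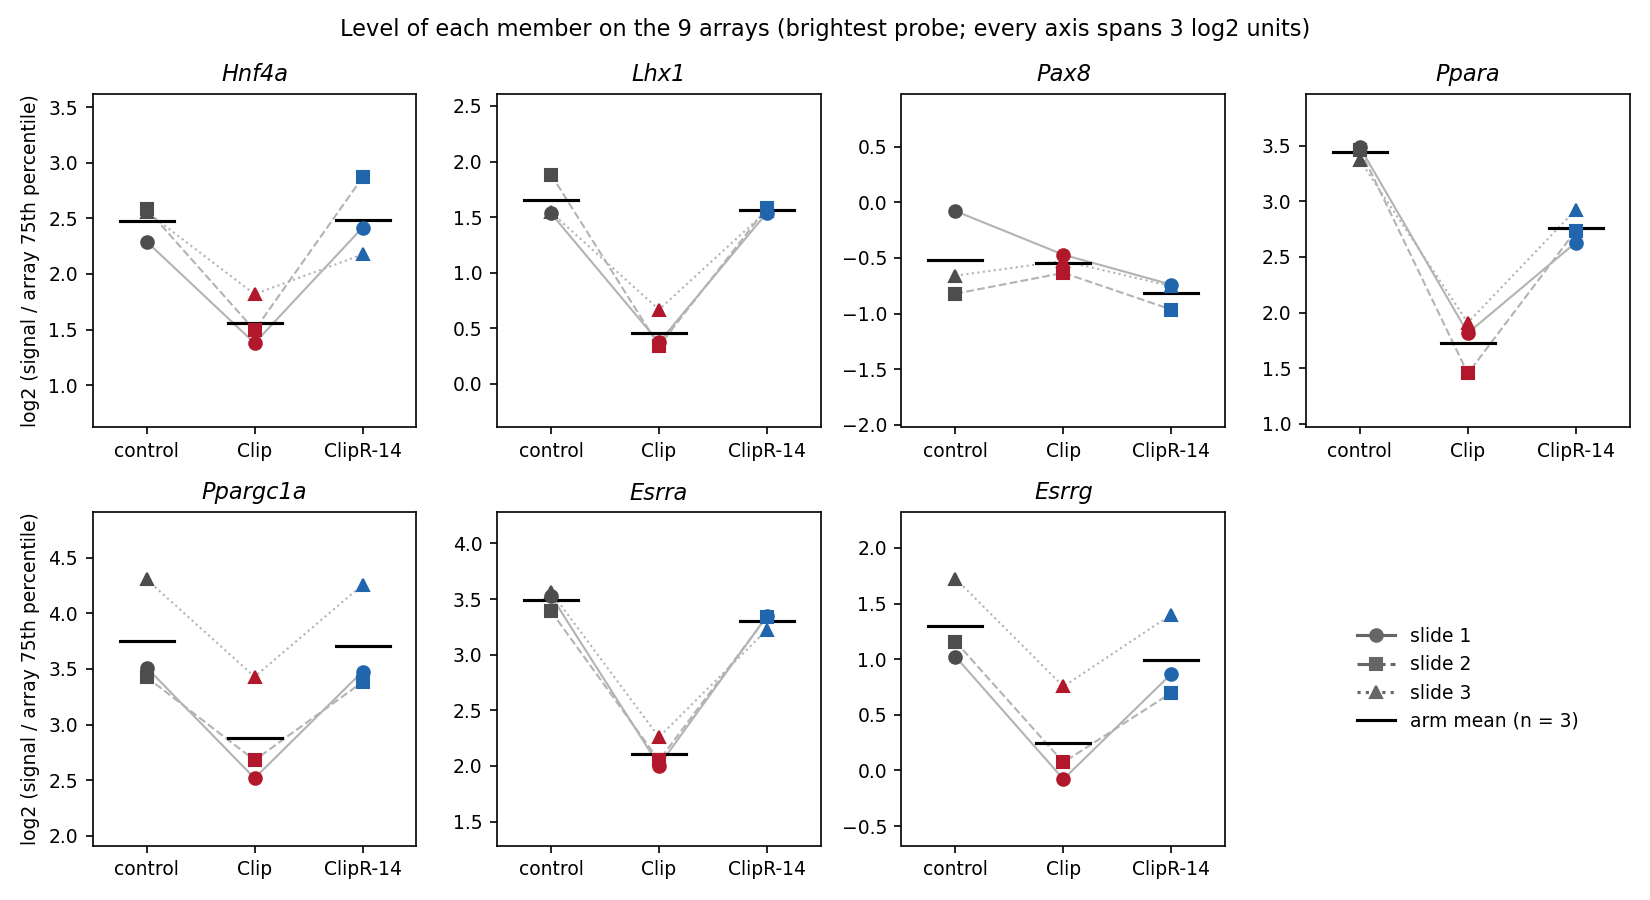
Level of each of the 7 measured genes on the 9 arrays, as log2 of signal over the array's 75th percentile, by arm; each point is 1 array, its shape and line give the slide, and the bar is the mean of 3 arrays. Every clipped kidney lies below every control kidney for Hnf4a, Lhx1, Ppara, Esrra and Esrrg, and slide 3 lies above the other slides in all arms for Ppargc1a and Esrrg.

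Among the nephron-forming factors, Lhx1 fell and Pax8 was not called. LHX1 is a LIM-homeodomain protein needed to form the nephron. Lhx1 is represented by 1 probe printed 10 times per array. It read 1.53, 1.88 and 1.54 in the control kidneys (sham 1, sham 2, untreated), 0.37, 0.34 and 0.67 in the clipped kidneys, and 1.54, 1.59 and 1.56 after release. All 3 clipped kidneys lay below all others, and the released kidneys lay inside the control range. Lhx1 was 2.28-fold lower after obstruction (log2 change -1.19 ± 0.13 SE, n = 3 against 3, limma adjusted p = 0.000126) and rose 2.14-fold from obstruction to release (1.10 ± 0.13, limma adjusted p = 0.000289). Against control the released kidneys differed by -0.09, with a 95% interval of -0.39 to 0.20 and a limma adjusted p of 0.712.

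PAX8 is a paired-box factor that the adult tubule goes on expressing. Pax8 read -0.08, -0.82 and -0.66 in control, -0.47, -0.63 and -0.53 in the clipped kidneys and -0.74, -0.96 and -0.76 after release. The sham 1 kidney was highest of all 9, and the control and clipped arms overlapped. The change after obstruction was -0.02, with a 95% interval of -0.44 to 0.39 (limma adjusted p = 0.925), and it turned to 0.20 without sham 1. The released kidneys all lay below the clipped kidneys, by 0.28 on the log2 scale, which limma did not call (adjusted p = 0.262); the arms of 54.8% of all genes do not overlap in that comparison. The 95% interval for obstruction leaves out a fall of the size seen for Lhx1, whose own interval was -1.49 to -0.90.

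PAX2, the paired-box factor of the embryonic nephron and duct, gave no usable level. The Pax2 probe, printed 10 times per array, was well above background on 0 of the 9 arrays, with readings between -6.54 and -4.28. No fold was computed for it.

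Hnf4a fell after obstruction on each of its 3 probes, and the probes differed after release. The brightest, A_52_P683991, read 2.29, 2.59 and 2.56 in control, 1.38, 1.49 and 1.82 in the clipped kidneys, and 2.42, 2.87 and 2.18 after release. Every clipped kidney was below every other kidney, and the control and released arms overlapped. On this probe Hnf4a was 1.89-fold lower after obstruction (-0.92 ± 0.19 SE, limma adjusted p = 0.00449) and 1.90-fold higher after release than after obstruction (0.92 ± 0.19, limma adjusted p = 0.00551). Released and control kidneys differed by 0.01, with a 95% interval of -0.43 to 0.45.

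The probe A_52_P69656 lay below control after release as well. It read -0.32, -0.34 and 0.04 in control, -1.56, -1.83 and -1.91 in the clipped kidneys, and -1.12, -1.23 and -1.44 after release. The 3 released kidneys lay above all clipped kidneys and below all control kidneys. The fall after obstruction was -1.56 ± 0.15 (limma adjusted p = 6.33e-05), the rise from obstruction to release 0.51 ± 0.15 (limma adjusted p = 0.0254), and the difference between release and control -1.06 ± 0.15, 2.08-fold (limma adjusted p = 0.0264). That last call was lost with normexp background correction (-0.94, limma adjusted p = 0.192) and without sham 1 (limma adjusted p = 0.0511), sham 2 (0.0615), ClipR-14 2 (0.112) or ClipR-14 3 (0.0677). This probe was singled out after its values had been seen.

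The third probe, A_51_P198473, read 0.30, 0.31 and -0.39 in control, -0.88, -1.19 and -1.25 in the clipped kidneys, and -0.12, -0.42 and -0.80 after release. The clipped kidneys were again lowest, and the released kidneys overlapped with control. Its change was -1.18 after obstruction and -0.52 after release, the latter with a limma adjusted p of 0.25. Within each array, A_52_P69656 minus A_52_P683991 lay between -2.92 and -2.51 in control and between -4.10 and -3.53 after release, arms that do not overlap. The mean of this difference moved by -1.07, and by -1.01 with normexp. The exact two-sided permutation test gave p = 0.1, the smallest that 3 against 3 allows, and 0.6 after Benjamini-Hochberg adjustment over 12 such probe comparisons. All 3 probes carry the same RefSeq accession, so which Hnf4a transcripts each one reads was not tested.

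**Figure D2:**
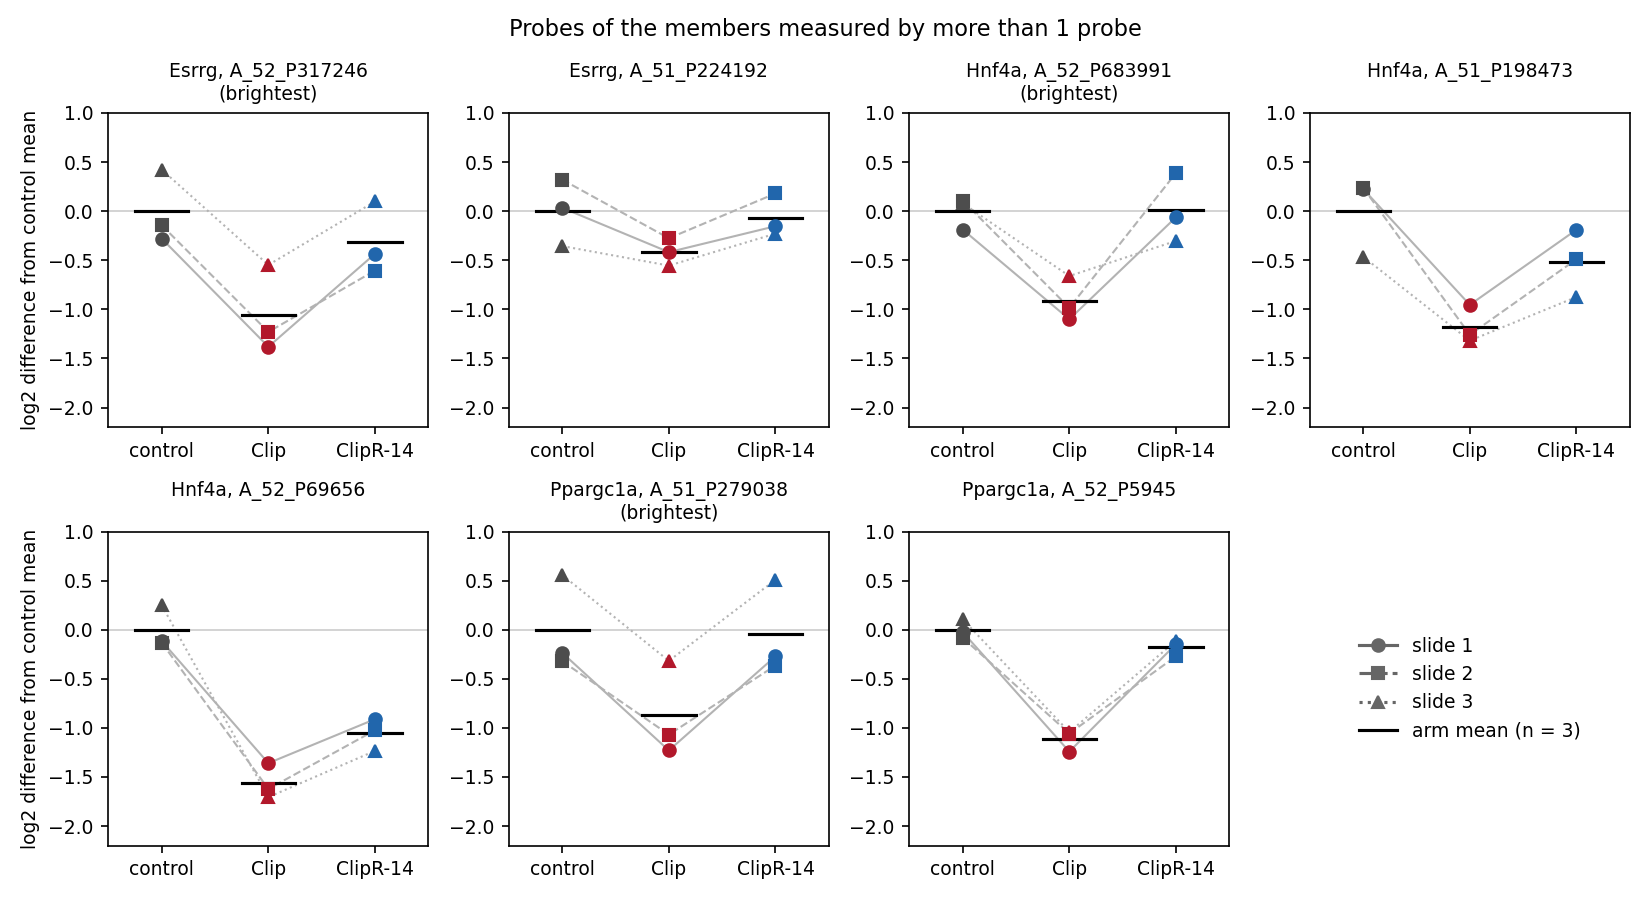
The 7 probes of Esrrg, Hnf4a and Ppargc1a on the 9 arrays, each as the log2 difference from that probe's mean in control; points are arrays, shapes and lines are slides, bars are means of 3 arrays. The released kidneys scatter around control for the brightest Hnf4a probe and lie below all control kidneys for A_52_P69656.

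HNF4G, the closest relative of HNF4A, was measured by 1 probe that passed the filter. Hnf4g read -2.93, -2.48 and -2.74 in control, -3.52, -3.71 and -3.11 in the clipped kidneys and -3.14, -3.08 and -3.42 after release. Both treated arms lay below control, and they overlapped with each other. The change was -0.73 ± 0.18 after obstruction (limma adjusted p = 0.0104), which turned to 0.33 with normexp, and -0.50 ± 0.18 after release (limma adjusted p = 0.173).

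Of the receptor genes Ppara, Esrra and Esrrg, Ppara had the largest log2 fall on these probes, and it was higher again after release. Its probe, printed 10 times per array, read 3.49, 3.47 and 3.37 in control, 1.82, 1.45 and 1.91 in the clipped kidneys, and 2.63, 2.74 and 2.93 after release. The 3 arms did not overlap: the released kidneys lay above every clipped and below every control kidney. Ppara was 3.28-fold lower after obstruction (-1.71 ± 0.14 SE, limma adjusted p = 2.56e-05) and rose 2.05-fold from obstruction to release (1.04 ± 0.14, limma adjusted p = 0.000524).

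The released kidneys read 1.60-fold below control on the Ppara probe (-0.68 ± 0.14). The limma adjusted p of 0.0508 misses the threshold. It passed with the slide as a block (0.044), among probes well above background on all 9 arrays (0.041) and without Clip 2 (0.0486). It was higher, at 0.322 with normexp, 0.113 without the filter on dim probes and 0.116 without sham 1 or without sham 2. With only 2 arms in the fit it was 0.0817, with quantile normalization 0.0793 and with the sham arrays alone as control 0.07. Within slides 1, 2 and 3 the difference between release and control was -0.86, -0.73 and -0.44. Ppara and Esrra were the 2 of the 7 genes whose released and control arms do not overlap, as is the case for 27.2% of all genes.

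Esrra, which encodes the receptor that partners PGC-1-alpha on mitochondrial genes, read 3.53, 3.39 and 3.56 in control, 2.00, 2.05 and 2.26 in the clipped kidneys, and 3.35, 3.34 and 3.23 after release. The clipped kidneys lay below all others, and the released kidneys lay just below the lowest control. Esrra was 2.62-fold lower after obstruction (-1.39 ± 0.10 SE, limma adjusted p = 1.70e-05) and rose 2.30-fold to release (1.20 ± 0.10, limma adjusted p = 5.25e-05). Released and control kidneys differed by -0.19, with a 95% interval of -0.42 to 0.04 (limma adjusted p = 0.318).

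Esrrg, whose receptor sustains oxidative metabolism, was read by 2 probes. The brighter one read 1.02, 1.16 and 1.73 in control, -0.08, 0.07 and 0.75 in the clipped kidneys, and 0.87, 0.70 and 1.40 after release. In every arm the array of slide 3 was highest, and within slides the fall after obstruction was -1.10, -1.09 and -0.97. Esrrg was 2.08-fold lower after obstruction (-1.05 ± 0.28 SE, limma adjusted p = 0.0145, and 0.000245 with the slide as a block). That call was lost without Clip 1 (limma adjusted p = 0.0536) or Clip 2 (0.0523).

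The rise of Esrrg from obstruction to release was 0.74 ± 0.28 and was not called (limma adjusted p = 0.0674), and it was called with the slide as a block. The dim second probe read between -3.40 and -2.53 on the 9 arrays. Its change after obstruction, -0.42, was not called (limma adjusted p = 0.0949).

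Ppargc1a, the coactivator gene, had the widest spread between slides. Its brighter probe read 3.51, 3.43 and 4.31 in control, 2.52, 2.68 and 3.43 in the clipped kidneys, and 3.48, 3.38 and 4.26 after release. The slide 3 array was highest in each arm, which put Clip 3 just above the control kidney sham 2, so the arms overlap. The change after obstruction was -0.87 ± 0.34 SE, 1.83-fold, and was not called (limma adjusted p = 0.0641).

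Within slides 1, 2 and 3 the same probe of Ppargc1a changed by -0.99, -0.75 and -0.87, and with the slide as a block the limma adjusted p was 0.000264. The call was also made without Clip 3 (0.0275) and without ClipR-14 3 (0.0468). It was not made with the sham arrays alone as control, which leaves out untreated 1 of slide 3 (-0.59, limma adjusted p = 0.183). Quantile normalization did not give it either (0.158). Leaving out Clip 3 or untreated 1 unbalances the slides between the compared arms. The second probe read 1.89, 1.83 and 2.02 in control, 0.67, 0.86 and 0.87 in the clipped kidneys, and 1.77, 1.64 and 1.80 after release. Slide 3 was highest in each arm on this probe too, but by less than on the brighter one, and the clipped arm lay apart. In place of the brighter probe it gave -1.11 after obstruction (limma adjusted p = 4.37e-05) and 0.94 from obstruction to release (limma adjusted p = 0.000161). Ppargc1b, the related coactivator gene, changed by -0.94 ± 0.17 after obstruction (limma adjusted p = 0.00181), and by 0.01 after release against control.

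**Figure D3:**
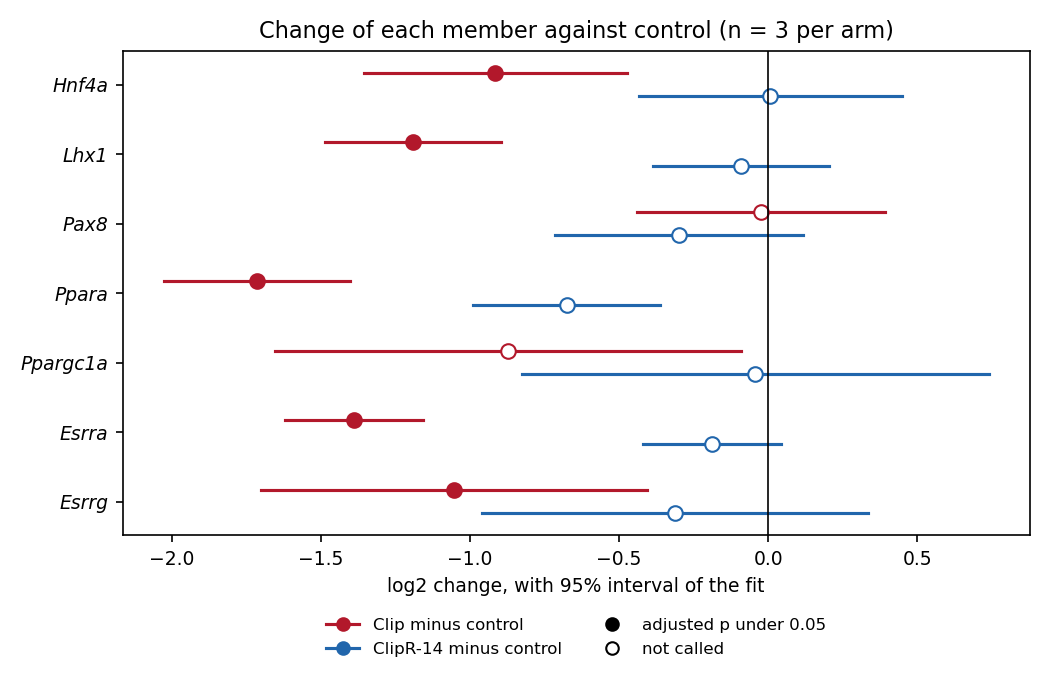
Log2 change of each of the 7 genes against control, on the brightest probe, for obstruction and for release, with the 95% interval of the fit (n = 3 per arm); filled points passed the adjusted threshold. The obstruction intervals of Hnf4a, Lhx1, Ppara, Esrra and Esrrg lie below 0 and are called, the interval of Ppargc1a lies below 0 without a call, and that of Pax8 spans 0.

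Differences between related genes were tested as within-array log2 ratios, which do not depend on scaling between arrays. Of 9 pairs named, 6 could be tested, in 18 comparisons; Pax2 and Ppard were not well above background. The exact permutation test with 3 arrays per arm gives no p below 0.1, so no pair could pass, and every adjusted value was at least 0.3. The log2 ratio of Hnf4a to Ppara lay between -1.20 and -0.81 in control and between -0.44 and 0.04 after obstruction, a shift of 0.80 with no overlap (exact p = 0.1). After release this ratio was 0.68 above control, with no overlap. Both values are those of the brightest Hnf4a probe: with A_51_P198473 the shifts were 0.54 and 0.16, and with A_52_P69656 they were 0.15 and -0.38, all with overlapping arms. Esrra minus Esrrg shifted by -0.34 after obstruction with overlapping arms (exact p = 0.3), and by -0.98 without overlap on the dim Esrrg probe. Hnf4a minus Hnf4g shifted by 0.50 after release on the brightest Hnf4a probe, with no overlap, by -0.021 on A_51_P198473 with overlap, and by -0.56 on A_52_P69656 with no overlap. After obstruction the same difference shifted by -0.18, -0.45 and -0.83 on these 3 probes.

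Most tested genes that these regulators are known to act on fell after obstruction. Over all genes 27.5% were called lower and 21.4% higher after obstruction, and 1.83% were called in release against control. Of 34 HNF4A target genes tested, most of them transporters and enzymes of the proximal tubule, 30 were lower after obstruction and 0 higher, with a median of -1.71 against -0.09 over all genes. Hpd, an enzyme of tyrosine breakdown, fell 28.6-fold (-4.84 ± 0.30, limma adjusted p = 9.18e-06). Ttr, the thyroxine carrier, was at least 6.09-fold lower, since it was not well above background in the clipped kidneys, and was not called with normexp. After release 0 of the 34 were called against control, with a median of -0.22 against -0.01 over all genes.

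PPAR-alpha target enzymes numbered 34 tested, of which 24 were lower and 1 higher after obstruction, with a median of -1.13. Acaa1b, a thiolase of peroxisomal fatty acid oxidation, fell by 2.09 on the log2 scale. The 1 higher gene was Plin2, which coats lipid droplets (0.45, limma adjusted p = 0.0223). That call was lost with normexp (0.254) and without sham 1 (0.0574) or Clip 1 (0.0805). It was also lost with the sham arrays alone as control, which leaves out untreated 1 (0.0663). After release 0 of the 34 were called against control, where 1.83% of all genes were called. The list median was -0.16, against -0.01 over all genes.

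Targets of the estrogen-related receptors and PGC-1 were lower in 39 of 41 tested, and higher in 0, with a median of -0.96. Acadm, a mitochondrial enzyme of fatty acid oxidation that also stands in the PPAR-alpha list, fell by 1.86. Kcnj1, the potassium channel of the thick ascending limb, fell by 1.69. The 2 not called were Atp5b (-0.43, limma adjusted p = 0.0622) and Pdk4 (-0.27, 0.208). After release 0 of the 41 were called against control, where 1.83% of all genes were called. The list median was -0.15, against -0.01 over all genes. Against obstruction 38 of the 41 were higher, where 23.5% of all genes were called higher.

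Other regulators moved in both directions. Of 33 other tubule transcription factors tested, 16 were lower and 5 higher after obstruction, with a median of -0.41. That is 63.6% called, against 48.9% of all genes. Klf15, a Kruppel-like factor, fell 5.55-fold and Ovol1, a zinc-finger factor, fell by 1.84 on the log2 scale. Sox9, a factor switched on in injured tubules, was at least 27.3-fold higher, with control kidneys not well above background, and Sox4 rose 4.37-fold (2.13 ± 0.14). After release Sox4 was still 1.91-fold above control (0.93 ± 0.14, limma adjusted p = 0.0295), and Bhlhe40, a clock-related repressor named after its values were seen, was lower (-1.05 ± 0.20, limma adjusted p = 0.0462). Both release calls were lost with normexp (limma adjusted p of 0.176 and 0.161), without the filter on dim probes (0.0713 and 0.0997), with only 2 arms in the fit (0.0633 and 0.102), and without any single sham or ClipR-14 array, with the Sox4 p between 0.0558 and 0.117 and the Bhlhe40 p between 0.0736 and 0.129. Leaving out Clip 1 lost both as well (0.0537 and 0.076), and Clip 2 or Clip 3 lost Bhlhe40 (0.068 and 0.0606).

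Of 29 genes of nephron development tested, 7 were lower and 5 higher, with a median of 0.07. The share called, 41.4%, lay below the 48.9% of all genes. Wnt4, a signal that turns embryonic mesenchyme into epithelium, rose by 2.37 ± 0.32 after obstruction, with 1 of 3 control arrays well above background. It was 2.54 ± 0.32 above control after release (limma adjusted p = 0.0212), a call lost with normexp (0.94, limma adjusted p = 0.319), without the filter on dim probes (0.0585), with only 2 arms in the fit (0.063) and without sham 2 (0.0526), ClipR-14 2 (0.0989) or ClipR-14 3 (0.0645). Etv4, a target of growth factor signalling, rose by 1.35, and Bmp7, a survival signal for nephron progenitors, fell by 1.21. Wnt11, a ureteric bud signal, changed by -1.24 (limma adjusted p = 0.0277); its arms overlapped, the change turned to 0.29 with normexp, and the call was lost without the filter on dim probes (limma adjusted p = 0.0544), with only 2 arms in the fit (0.0521) and without sham 1 (0.0868), untreated 1 (0.0686), Clip 2 (0.0976) or Clip 3 (0.0881).

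Of 21 other metabolic nuclear receptors tested, 10 were lower after obstruction and 0 higher, with a median of -0.44. The share called, 47.6%, was near the 48.9% of all genes, of which 27.5% were lower. Esrrb, the third estrogen-related receptor gene, fell 4.80-fold (-2.26 ± 0.14, limma adjusted p = 8.13e-06) and differed from control by 0.02 after release. Nr0b2, an orphan receptor that represses other receptors, was not well above background in the clipped kidneys and at least 1.52-fold lower, and its change turned to 0.28 with normexp.

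Among 28 coactivators, corepressors and mitochondrial transcription factors, 11 were lower and 4 higher, with a median of -0.22. The share called, 53.6%, was near the 48.9% of all genes. Perm1, a muscle-enriched regulator of PGC-1 and receptor targets, was at least 13.7-fold lower, with the clipped kidneys not well above background, and Lpin1, a partner of PGC-1-alpha, fell by 2.20. Gabpb1, a subunit of a nuclear respiratory factor, rose by 0.74, a call lost when its probes were averaged (0.15), and Pprc1, a PGC-1-related coactivator, rose by 0.57. In these 2 lists 0 genes were called in release against control, where 1.83% of all genes were called. With genes that have only a bound set at that bound, the obstruction medians of the 7 lists stayed as given.

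**Figure D4:**
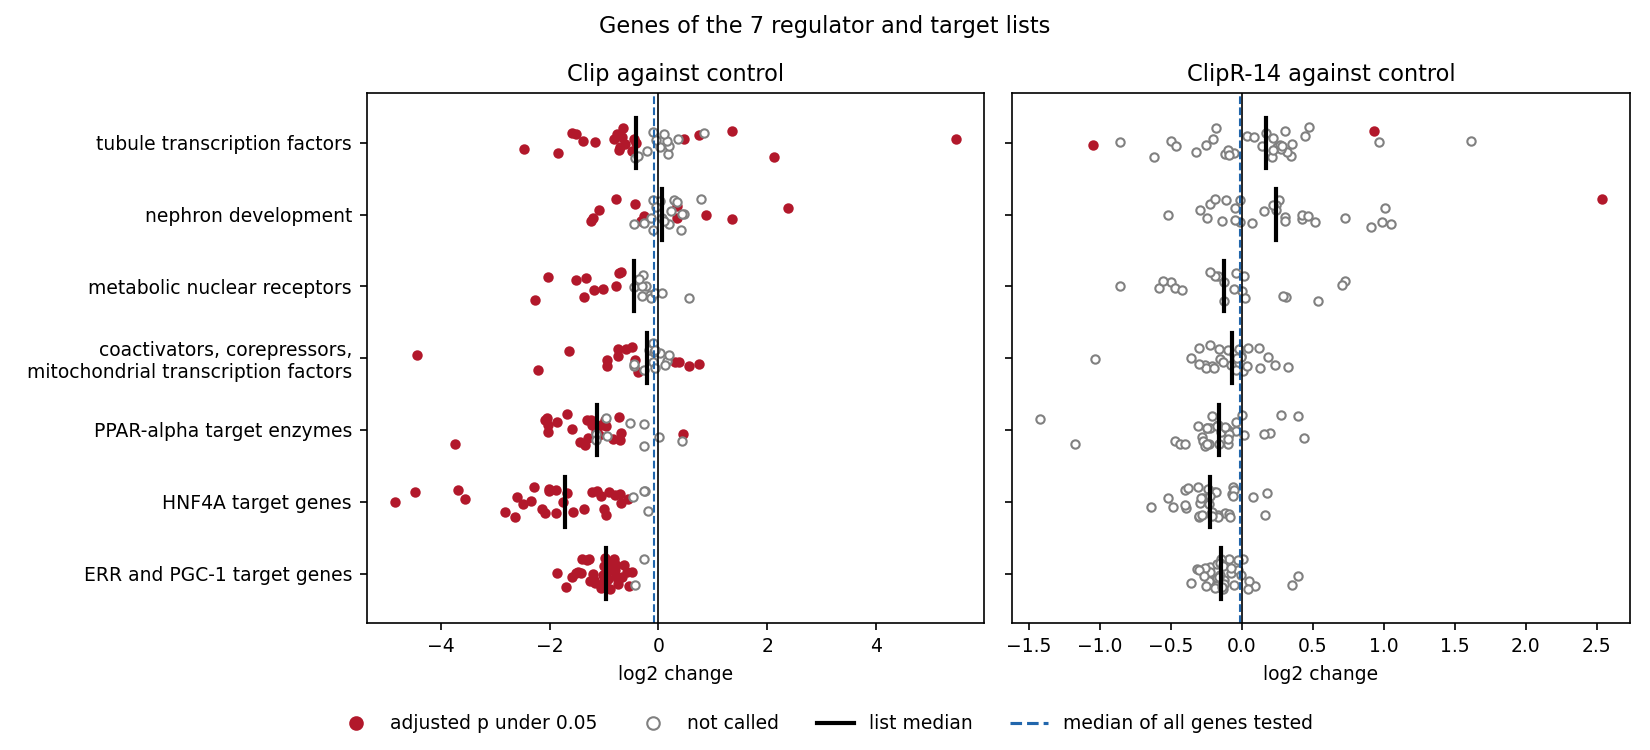
Log2 change of every tested gene of the 7 lists of regulators and targets, for obstruction and for release against control; points are genes, filled where the limma adjusted p was under 0.05, the bar is the list median and the dashed line the median of all genes. The 3 target lists lie to the left of the all-gene median after obstruction and have medians from -0.22 to -0.15 after release; genes not well above background in one arm are drawn at their fitted value.

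Markers of cell types moved with these genes, and their part in the changes was not tested. The marker and target lists share genes. Slc34a1, Slc5a2, Slc22a6, Slc22a8, Lrp2 and Cubn are HNF4A targets and proximal tubule markers, and Kcnj1 is a receptor target and a thick limb marker. Over all genes 27.5% were called lower and 21.4% higher after obstruction. In bulk RNA, fewer cells of a type and less RNA per cell cannot be told apart. Of 13 proximal tubule markers, 12 were lower after obstruction, and their summed linear level (multiples of the array's 75th percentile) was 721 to 898 in control, 200.2 to 314 in the clipped kidneys and 680 to 787 after release. All 11 tested markers of the thick limb and distal tubule were lower (444 to 498, 162 to 195 and 487 to 527), with Ppp1r1b and Pvalb not well above background in the clipped kidneys. Of 12 collecting duct markers, 8 were lower (124 to 147, 47.4 to 56.0 and 127 to 155). Macrophage markers rose in 12 of 13 (12.9 to 15.4, 51.4 to 59.0 and 21.3 to 26.2), with Itgam, Lyz2 and Ccr2 not well above background in control, and fibroblast markers in 11 of 12 (57.6 to 74.1, 249.7 to 326 and 95.1 to 117). Of 8 urothelial markers, Krt5, Krt20 and Trp63 were higher and the 5 uroplakin genes, named like these after their values were seen, were not called (-0.31 to 0.39 on the log2 scale). The largest rises were those of Krt20 (6.07) and Krt5 (2.45), and the summed level of the 8 was 1.15 to 2.14 in control, 8.12 to 8.47 in the clipped kidneys and 2.30 to 2.91 after release. Proliferation markers rose in 8 of 9, with Top2a, Ccnb1 and Aurkb not well above background in control. The tubule sums of the released kidneys overlapped with control, while the macrophage and fibroblast sums lay above control.

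For each gene the closest profiles over the 9 arrays were found by root mean square distance of the centred log2 levels, as a description. The nearest to Ppara was Slc25a10, a mitochondrial dicarboxylate carrier, at 0.0965, and it differed from control by -0.67 after release. Klf9, a Kruppel-like factor, was next at 0.14 and differed from control by -0.72 after release. Esrra was followed most closely by Tango2 (0.0786) and Sfxn5 (0.0816). Lhx1 was followed by Etfdh (0.0896), which passes electrons from fatty acid oxidation to the respiratory chain, then Nfs1 (0.1) and Rilp (0.103). The nearest to Hnf4a were Depdc7 (0.115), Sptssa (0.12) and Ndufab1 (0.127). The nearest to Esrrg were Dnajc13 (0.0965), Nxt2 (0.108) and Larp1b (0.113), and to Ppargc1a Nanp (0.138), Etnk1 (0.168) and Asah2 (0.17). Pax8 lay nearest to Lhfpl4 (0.0794), Zfp397 (0.116) and Rnf20 (0.123). All share the same 9 arrays and their slides.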

How the data were processed

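The deposited scanner files give 1 intensity per spot; per the file headers, Feature Extraction 10.7.3.1 subtracted background on array design 014868, with no scaling between arrays. Other deposited columns used hold flags (0 or 1) for spots above background, saturated or outlying. The deposited log2 value table was not used: its 8080 matched probes correlated with their own scanner values at a median r of 0.0188.

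Levels are log2 of the signal over the 75th percentile of its array. Outlier-flagged spots were left out and repeated spots averaged. Probes well above background on at least 3 of 9 arrays were kept, and the brightest probe stood for each gene, leaving 17742 genes, 13017 with a symbol through RefSeq. The model (limma 3.58.1, R 4.3.3) held 3 arms over 9 arrays. On simulated data it recovered 88% of planted log2 changes of 2 and 69% of those of 1 between the Clip and control arms. The simulation changed a far smaller share of genes than was called after obstruction, so these shares may not hold for the data. Normexp (offset 50) used median signals, since a mean signal was not among the columns used. Depth does not apply; the number of arrays limits the precision.

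Members and lists were chosen with earlier results of these data known. Besides the 8 genes and their pairs, the text names from each list of regulators and targets the 2 largest rises and falls called after obstruction, and the 3 nearest profiles of each gene. Some genes that this rule names are not reported here. Alternatives were the background correction, scaling, filter, slide or replicate block, control arm, arms in the fit, probe, and each array left out.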

Additional observations from a re-analysis of the deposited data

How the results depend on the processing

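In 371 of 411 checks of a member under another setting, direction and call stayed as reported. The slide block, the fit with only 2 arms, both filters and omitting an array outside the compared arms keep the log2 change. So does the replicate block for release over obstruction. The mean of a gene's probes keeps it for Ppara, Esrra, Pax8 and Lhx1, which have 1 probe each. In those checks only the call could differ. The sham arrays alone as control and leaving out untreated 1 are the same fit, counted under both names. Genes called numbered 5622 with normexp against 8676 for obstruction, and 4136 with normexp and 13597 without a filter on dim probes against 7270 for release over obstruction. For release against control the 325 calls became 1 with normexp, 117 with quantile normalization, 179 with median scaling, 12 without the filter, 1163 with the slide as a block, and 0 with only 2 arms in the limma fit, where 3384 genes had an unadjusted p under 0.05. Leaving out 1 array gave 7147 to 8605 calls for obstruction, 5712 to 7652 for release over obstruction, and 2 to 343 for release against control: 2 without ClipR-14 2, 16 without sham 2, 50 without ClipR-14 3, 58 without sham 1, 73 without Clip 1, 113 without Clip 2, 174 without ClipR-14 1 and 212 without Clip 3. Normexp moved the median of all genes for obstruction from -0.09 to 0.10, and median scaling moved it for release from -0.01 to -0.12. With normexp the obstruction change was -1.13 for Ppargc1a, now called, 0.080 for Pax8, 0.29 for Wnt11, 0.28 for Nr0b2 and 0.33 for Hnf4g, and the within-array shift was 0.21 for Esrrg minus Ppargc1a and -0.10 for Ppargc1a minus Ppargc1b. For release against control, Ppargc1a was at 0.075 with quantile normalization and 0.24 against the sham arrays alone, where Esrra minus Esrrg was at -0.054 and Ppargc1a minus Ppargc1b at 0.052; Hnf4a was at -0.10 with median scaling. Ppara in release against control was called at -0.68 among probes above background on all 9 arrays and with the slide as a block. It was not called with normexp, quantile normalization or median scaling, without the filter, or with only 2 arms in the fit. The slide block also called Ppargc1a at -0.87 for obstruction and 0.83 for release over obstruction, and Esrrg at 0.74 for the latter. The mean of a gene's probes called Ppargc1a at -0.99 and 0.88 and Esrrg at 0.54 in the same comparisons, and put Hnf4a at -0.52 in release against control. Single other probes gave -1.06 (A_52_P69656) and -0.52 (A_51_P198473) for Hnf4a in release against control, 0.66 (A_51_P198473, not called) in release over obstruction, -1.11 and 0.94 for Ppargc1a, and -0.42 (not called) for Esrrg in obstruction. Within arrays, added after seeing the data, Hnf4a minus Hnf4g in release against control was -0.56 with A_52_P69656 and -0.021 with A_51_P198473, Hnf4a minus Ppara there -0.38 with A_52_P69656, and Esrrg minus Ppargc1a in obstruction 0.062 with A_52_P5945 and 0.46 with A_51_P224192. Replicate numbers are shared across arms but did not pair all samples. Deviations of same-number samples on 1 slide correlated at 0.161 to 0.269, and those of untreated 1 with the samples numbered 1 at -0.209. Untreated 1 correlated with Clip 3 and ClipR-14 3, of its own slide but another number, at 0.282 and 0.279. Pairs that shared neither slide nor number correlated at -0.239 to 0.00291. The shared deviations went with the slide rather than the number, and the main fit holds no slide term. The replicate block gave 202 calls in release against control, called Ppargc1a at -1.12 and 0.83 and Esrrg at 0.74, and put Pax8 at 0.0049 in obstruction and Hnf4a at -0.017 in release against control. Leaving out 1 array gave, for obstruction, -1.15 to -0.59 for Ppargc1a, -1.31 to -0.84 for Esrrg and -0.17 to 0.20 for Pax8. For release against control it gave -0.18 to 0.16 for Hnf4a, -0.76 to -0.61 for Ppara, -0.32 to 0.24 for Ppargc1a and -0.15 to 0.023 for Lhx1, and within arrays -0.054 to 0.37 for Esrra minus Esrrg and -0.24 to 0.080 for Ppargc1a minus Ppargc1b. For release over obstruction it gave 0.55 to 1.11 for Ppargc1a and 0.53 to 0.99 for Esrrg, and within arrays -0.32 to 0.12 for Hnf4a minus Ppara and -0.31 to 0.071 for Ppargc1a minus Ppargc1b. No spots were saturated. The Hnf4g probe was dim but well above background on all 9 arrays, while Nr0b2 and Ttr were not well above background in the clipped kidneys. Whether signal over background limits the dim probes of Hnf4g, Wnt11, Nr0b2 and Ttr was not tested. The causes of these differences were not tested.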

Other observations

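Of 8 T cell markers, 6 were tested and 4 were higher after obstruction, with Cd3g not well above background in control. Their summed level was 0.595 to 0.754 in control, 1.31 to 1.71 in the clipped kidneys and 0.870 to 1.51 after release. Endothelial markers rose in 1 and fell in 2 of 8 (52.3 to 55.8, 43.8 to 52.2 and 58.2 to 66.1). Of 7 podocyte and parietal cell markers, 4 were lower and 1 higher (5.43 to 6.92, 4.84 to 5.61 and 5.27 to 5.51). Of 6 tested adipocyte markers, 2 were lower and 0 higher (64.6 to 78.7, 53.6 to 57.1 and 71.9 to 78.7). Most of that sum is Fabp4, at a log2 level of 5.995 to 6.1237 in control. Cfd spread from -3.35 to 2.63 in control and from -5.91 to 1.54 in the clipped kidneys, and Adipoq from -5.03 to -0.75 in control. The sum of the 9 proliferation markers was 10.8 to 12.8 in control, 35.7 to 42.0 after obstruction and 10.6 to 12.0 after release. Over all genes 21.4% were called higher and 27.5% lower after obstruction. The proliferation list marks dividing cells of any type, tubule cells included. The part of the other lists' cells in the regulators' signal was not tested.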
